A study of Mus musculus with 9 samples.

Results

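The machinery that copies DNA was followed as 46 genes listed by function, from origin licensing to the supply of deoxynucleotides, out of 56289 gene identifiers in the deposited gene table. All 46 were found by symbol, all had at least 1 FPKM in every library, and all were tested. FPKM, the unit of every level given here, is fragments scaled to gene length and library depth, so levels can be compared between genes. The 9 poly-A RNA libraries were labelled RAW264.7, a mouse macrophage-like line of BALB/c origin, with 3 libraries in each of 3 groups: cells given TNF-α together with WBG for 24 h (TNF plus WBG), cells given TNF-α alone for 24 h (TNF), and untreated cells. WBG stands for Wang Bi granules, a Chinese herbal preparation. The sources used here give neither doses nor a culture time for the untreated cells, so time in culture and treatment cannot be told apart against that group. The series asks which genes differ among the blank, the induced and the drug-treated cells.

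DNA replication starts when the origin recognition complex, Cdc6 and Cdt1 load the ring-shaped helicase made of Mcm2 to Mcm7 onto DNA, a step called licensing that geminin (Gmnn) restrains. At the start of S phase, Cdc45 and the GINS proteins join the ring and turn it into an active helicase, and RPA coats the unwound strands. The polymerases and primase copy these strands with the sliding clamp Pcna, which the clamp loader places on DNA, and Fen1 and Lig1 complete the work. Many of these genes are transcribed under E2F factors, which the retinoblastoma protein holds back until cyclin-dependent kinases inactivate it, so their RNA is a common readout of how many cells are in or near S phase. In RNA from whole cultures, fewer cells in S phase and less RNA per cell cannot be told apart.

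The libraries hold an estimated 18.9 to 26.1 M (mega) fragments, if the step on which values of single-exon genes pile up is 1 fragment (17.2 to 19.7% of such values lay within 0.02 of a whole step, where even spacing gives 4.0%). That step was the best of many tried in a fixed range of depths, so a depth outside the range could not be found. The 4.0% holds for a single step set beforehand. No counts were derived from the estimate. Of 18 macrophage markers 3 averaged at least 1 FPKM, and Ptprc, Itgam, Adgre1 and Tyrobp were listed at 0 in every library. Of 14 fibroblast markers 11 did, with a list median of 247 FPKM. Of the others, Lum was listed at 0 in every library, and Thy1 and Loxl1 averaged 0.0117 and 0.825 FPKM. Dcn was low among those expressed, with a mean of 2.29 FPKM. The summed macrophage list was 9.76 to 12.4 FPKM with TNF plus WBG, 8.73 to 10.1 with TNF and 8.92 to 9.59 untreated, and the summed fibroblast list 5580 to 5680 FPKM with TNF plus WBG, 5630 to 5920 with TNF and 5340 to 5700 untreated. Single markers moved in both directions beside the replication genes: of 11 fibroblast markers tested, 5 passed between TNF and untreated (45.5%, against 10.6% of all genes), with Col1a1 and Col1a2 up and Pdgfrb, Postn and Vim down. Between TNF plus WBG and untreated, Pdgfrb and Postn fell (18.2%, where 9.19% of all genes were called and 3.67% fell). Between TNF plus WBG and TNF 0 of 11 passed, where 0.0998% of all genes did. There 1 of 11 had an unadjusted p under 0.05 (9.09%, against 9.06% of all genes). Of 3 macrophage markers tested, Mertk fell with TNF and Cd14 rose with TNF plus WBG, each against untreated. That is 33.3% of the 3 in each, where 10.6 and 9.19% of all genes were called. All groups carried this fibroblast-like profile, against the label of a macrophage line, and the part of the culture's cell makeup in the results below was not tested. The labels do not say whether replicates were separate cultures, and p-values therefore speak only of how these samples scatter.

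Replication genes were highest, as a group, in the TNF libraries, and close to their untreated levels in the TNF plus WBG libraries. The mean of log2(FPKM + 1) over the 46 genes was 3.321, 3.25 and 3.292 in the 3 TNF plus WBG libraries, 3.456, 3.355 and 3.4 in the TNF libraries, and 3.275, 3.242 and 3.298 in the untreated libraries. Every TNF library lay above all 6 others on this scale, and the TNF plus WBG libraries overlapped the untreated ones. By group mean, TNF was the highest of the 3 groups for 35 of the 46 genes (76.1%), where this held for 32.9% of all 13026 genes tested. The differences were small: across the 9 libraries the highest FPKM was less than 1.3 times the lowest for 20 genes, and more than 2 times for 3 (Fen1, Gins2 and Rpa1).

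**Figure D1:**
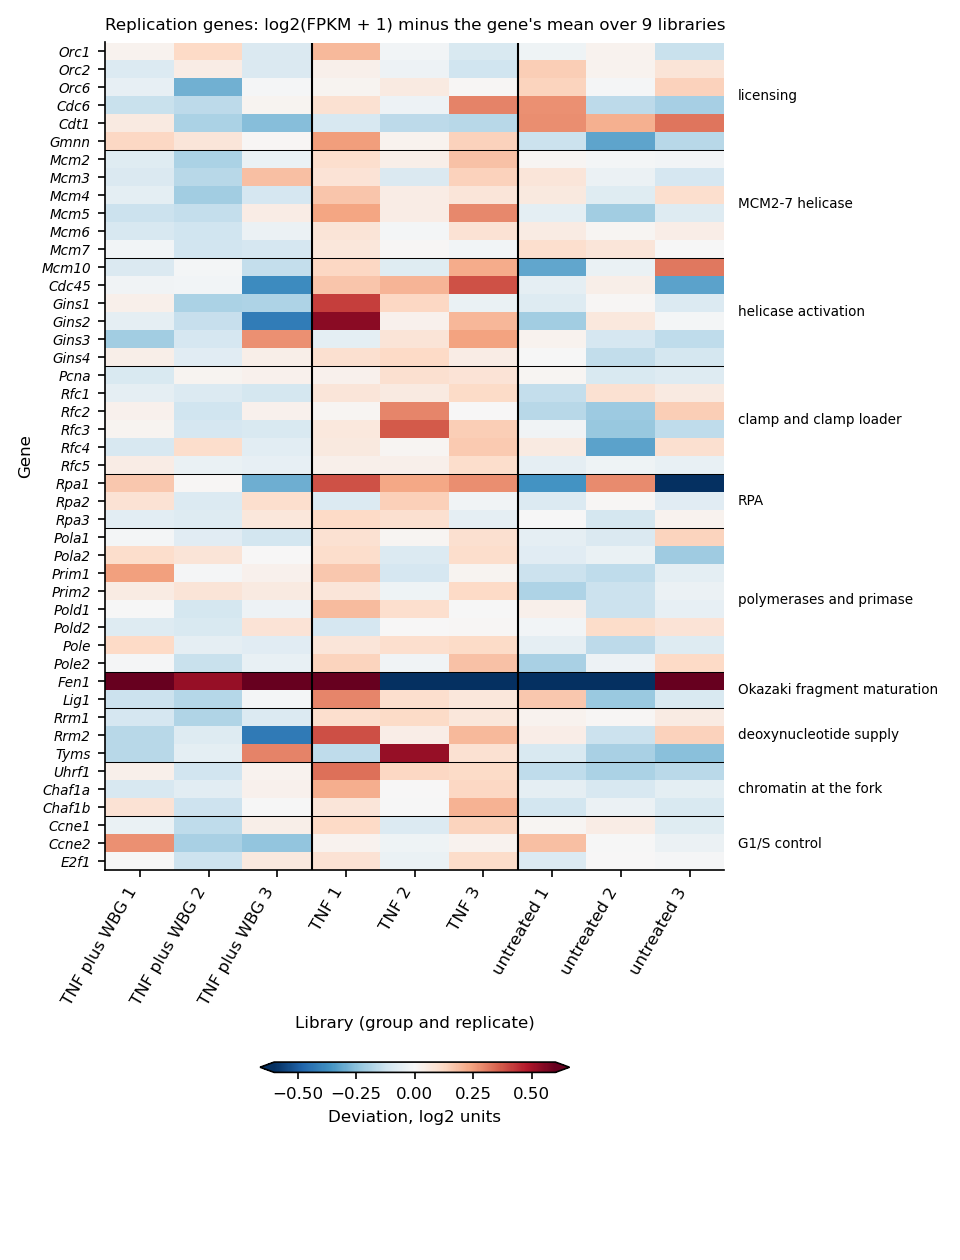
Each row is a replication gene, grouped by role, and each column a library. Colour gives log2(FPKM + 1) minus that gene's mean over the 9 libraries, in log2 units, with values past 0.6 shown at the end colours. The TNF columns are mostly red, and Fen1 switches between 2 levels across libraries.

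Few single genes passed a test. Tests were two-sided limma fits on log2(FPKM + 1) over all 13026 genes kept, and a gene is said to have risen or fallen at a Benjamini-Hochberg adjusted p under 0.05. Between TNF plus WBG and TNF, 0 of 46 replication genes passed, where 0.0998% of all genes did (0.0691% higher and 0.0307% lower), and 0 passed under any alternative setting tried. At an unadjusted p under 0.05 there were 14 replication genes (30.4%), against 9.06% of all genes. Fold changes were below 0 for 39 of the 46 (84.8%), against 51.1% of all genes (48.9% were above 0), with a median log2 fold change of -0.12 against 0 for all genes. For 17 genes (37%) every TNF plus WBG library lay below every TNF library, where 7.72% of all genes did so, and for 0 genes it was the other way round (background 7.03%, or 14.7% for both directions). Genes of 1 process share libraries and vary together, so these shares describe the libraries and are not independent counts.

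Between TNF and untreated, 3 replication genes rose (Uhrf1, Gmnn and Mcm5) and 1 fell (Cdt1). That is 8.7% of the 46, close to the 10.6% of all genes called in this comparison (6.43% higher and 4.21% lower). In direction the set leaned one way: fold changes were above 0 for 40 of the 46 (87%), against 50% of all genes, with a median of 0.13 against 0. For 14 genes (30.4%) every TNF library lay above every untreated library (background 15.5%), and the reverse held for Cdt1 only (2.17%, background 14.4%, or 30% for both directions). At an unadjusted p under 0.05 there were 12 genes (26.1%), close to the 24% of all genes. The rises numbered 1 without TNF replicate 3 or without untreated replicate 3, and the fall was lost without untreated replicate 3.

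Between TNF plus WBG and untreated, Cdt1 alone fell and 0 genes rose (2.17% of the 46, background 9.19%, of which 5.52% higher and 3.67% lower). At an unadjusted p under 0.05 there were 9 genes (19.6%), against 22.8% of all genes. Fold changes were above 0 for 24 genes (52.2%, background 49.2%) and below 0 for 22 (47.8%, background 50.8%), with a median of 0. The groups were apart for 5 genes upwards (10.9%, background 14.5%) and 5 downwards (10.9%, background 13.6%), together against 28.1% of all genes. This comparison does not use the TNF libraries, whereas the 2 comparisons above share them, so values that are high there enter both, with opposite sign. Each comparison's own values are given side by side below.

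**Figure D2:**
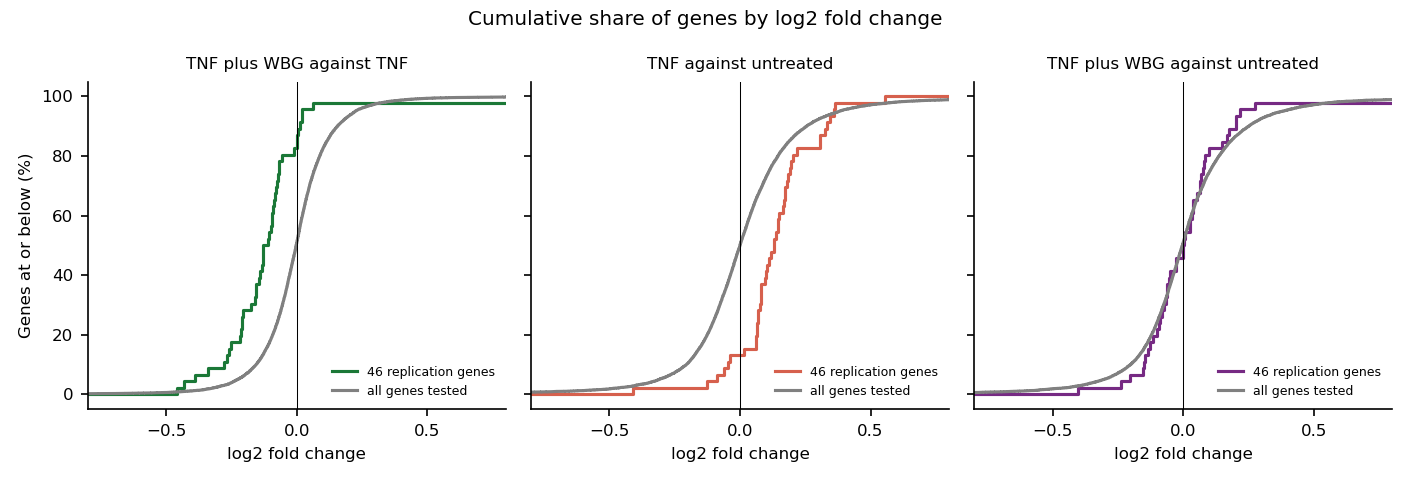
Cumulative share of genes (%, vertical axis) at or below each log2 fold change (horizontal axis), for the 46 replication genes in colour and all 13026 genes tested in grey. The coloured curve lies left of the grey one for TNF plus WBG against TNF (median -0.12), right of it for TNF against untreated (median 0.13), and near it for TNF plus WBG against untreated (median 0).

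Promoter sequence is shown because the genes leaned together. RefSeq promoter windows on GRCm38.p6, 300 bases long (250 before and 50 after a start), were available for 37 of the 46 genes, in 44 windows. The E2F core (TTCCCGC and its variant TTGGCGC, besides the forms TTGCCGC as well as TTCGCGC, on either strand) was present in 27 of the 44 windows (61.4%), against 9.57% of all 32851 windows and 13% of the windows with a GC content of 52.6 to 65.9%, the middle range of the members. Of its 46 matches 12 overlapped another E2F match, since the core and its reverse share letters, and 5 overlapped a CCAAT match. The CCAAT box (CCAAT, either strand) was in 61.4% of member windows and 37.4% of all windows. The cell cycle homology element of mitotic genes (TTTGAA or TTCGAA, either strand) was in 15.9% and 19.2%. The 24 genes with an E2F match and the 13 without had like medians: -0.13 and -0.11 for TNF plus WBG against TNF, 0.13 and 0.10 for TNF against untreated. A match is a run of letters and not a shown binding site.

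The windows of the genes called in any comparison, where the table holds them, are shown with those of Mcm6, which has the most E2F matches, and Rrm1, which has the smallest unadjusted p against TNF. Capitals mark the E2F matches, on either strand, and each window is written 5′ to 3′ on the gene's own strand.
Mcm5 (chr8:75109259-75109558, plus strand): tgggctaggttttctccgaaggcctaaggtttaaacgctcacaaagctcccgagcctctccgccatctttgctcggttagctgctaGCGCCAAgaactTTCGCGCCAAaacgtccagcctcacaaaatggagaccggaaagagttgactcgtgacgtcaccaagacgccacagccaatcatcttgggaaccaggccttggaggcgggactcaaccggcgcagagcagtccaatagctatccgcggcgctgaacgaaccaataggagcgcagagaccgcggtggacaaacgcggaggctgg
Mcm6 (chr1:128359656-128359955, minus strand): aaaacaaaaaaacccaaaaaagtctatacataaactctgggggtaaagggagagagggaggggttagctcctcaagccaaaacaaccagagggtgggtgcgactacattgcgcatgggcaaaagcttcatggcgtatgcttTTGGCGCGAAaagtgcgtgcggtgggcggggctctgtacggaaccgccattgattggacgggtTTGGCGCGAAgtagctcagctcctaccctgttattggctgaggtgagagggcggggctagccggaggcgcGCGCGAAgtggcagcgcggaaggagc
Cdt1 (chr8:122567765-122568064, plus strand): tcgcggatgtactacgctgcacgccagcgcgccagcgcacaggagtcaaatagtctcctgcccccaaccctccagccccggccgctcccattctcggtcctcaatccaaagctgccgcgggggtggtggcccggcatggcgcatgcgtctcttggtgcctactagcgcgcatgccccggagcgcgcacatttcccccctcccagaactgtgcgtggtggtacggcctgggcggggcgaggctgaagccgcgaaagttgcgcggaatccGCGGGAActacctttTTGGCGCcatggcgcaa
Uhrf1 (chr17:56303087-56303386, plus strand, the upstream one of 2 windows): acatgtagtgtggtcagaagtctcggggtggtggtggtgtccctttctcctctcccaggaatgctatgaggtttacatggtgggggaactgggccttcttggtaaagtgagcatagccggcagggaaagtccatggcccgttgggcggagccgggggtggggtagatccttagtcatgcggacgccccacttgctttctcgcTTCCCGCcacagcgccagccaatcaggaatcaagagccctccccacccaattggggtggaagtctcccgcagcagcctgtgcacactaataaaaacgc
Rrm1 (chr7:102441445-102441744, plus strand): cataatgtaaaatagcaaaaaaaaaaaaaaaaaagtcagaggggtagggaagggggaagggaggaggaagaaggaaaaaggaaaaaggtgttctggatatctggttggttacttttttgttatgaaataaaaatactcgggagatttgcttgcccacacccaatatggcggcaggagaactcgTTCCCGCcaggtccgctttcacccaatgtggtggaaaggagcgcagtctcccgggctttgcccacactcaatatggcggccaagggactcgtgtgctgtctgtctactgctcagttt
In Mcm5 and Mcm6 the core sits in pairs that read on both strands, in Mcm6 at 2 places of the window. In Cdt1 both matches lie after the start, close to the end of the window.

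Licensing held 2 of the 4 genes called with TNF, and they changed in opposite directions. Cdt1, which loads the helicase, had 10.2, 8.46 and 8.03 FPKM with TNF plus WBG, 9.1, 8.67 and 8.62 with TNF, and 12.1, 11.5 and 12.5 untreated. All 6 libraries given TNF lay below all 3 untreated ones, whether or not WBG was present. Cdt1 fell with TNF to 0.731 of the untreated mean (log2 fold change -0.41 ± 0.08 SE, limma adjusted p = 0.0132) and with TNF plus WBG to 0.741 (-0.40 ± 0.08, adjusted p = 0.0159). Between TNF plus WBG and TNF its log2 fold change was 0.01 ± 0.08 (adjusted p = 0.988). The fall with TNF was lost without untreated replicate 3 (adjusted p = 0.0527), and the fall with TNF plus WBG without TNF plus WBG replicate 2 (0.063), untreated replicate 3 (0.0629) or untreated replicate 1 (0.0542).

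Gmnn, the inhibitor that binds Cdt1, had 5.37, 5.14 and 4.87 FPKM with TNF plus WBG, 5.95, 4.93 and 5.44 with TNF, and 4.34, 3.69 and 4.2 untreated. Again the 6 TNF-treated libraries did not overlap the untreated ones, here above them. Gmnn rose with TNF 1.34-fold (log2 0.34 ± 0.08, adjusted p = 0.0292), and with TNF plus WBG it was 1.26 times the untreated mean without passing (0.27 ± 0.08, adjusted p = 0.0753). The TNF call was lost without TNF replicate 1 (adjusted p = 0.0902), TNF replicate 3 (0.0851), untreated replicate 2 (0.0893) or untreated replicate 3 (0.0663).

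The other licensing genes did not pass in any comparison. Orc6, a subunit of the origin recognition complex, had 16.1, 13.5 and 16.6 FPKM with TNF plus WBG, 16.9, 17.4 and 16.8 with TNF, and 18.4, 16.6 and 18.5 untreated. Orc2, another subunit, had 10.0, 11.0 and 9.96 FPKM with TNF plus WBG, 10.9, 10.4 and 9.71 with TNF, and 11.9, 10.8 and 11.3 untreated. Orc6 with TNF plus WBG lay below TNF in every library, and Orc2 overlapped in all 3 comparisons. Orc1, the subunit made in late G1, was the lowest of the 46 genes with a mean of 1.54 FPKM, and Cdc6, the loading ATPase, averaged 2.68 FPKM. Exons of Orc1, Orc2 and Orc6 overlap a gene on the other strand in GENCODE M21. Of the 46 genes, 16 have exons that overlap another gene on either strand. The sources used here do not state whether strand was used in the counting. Without it, reads of pairs on opposite strands cannot be told apart where they overlap.

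**Figure D3:**
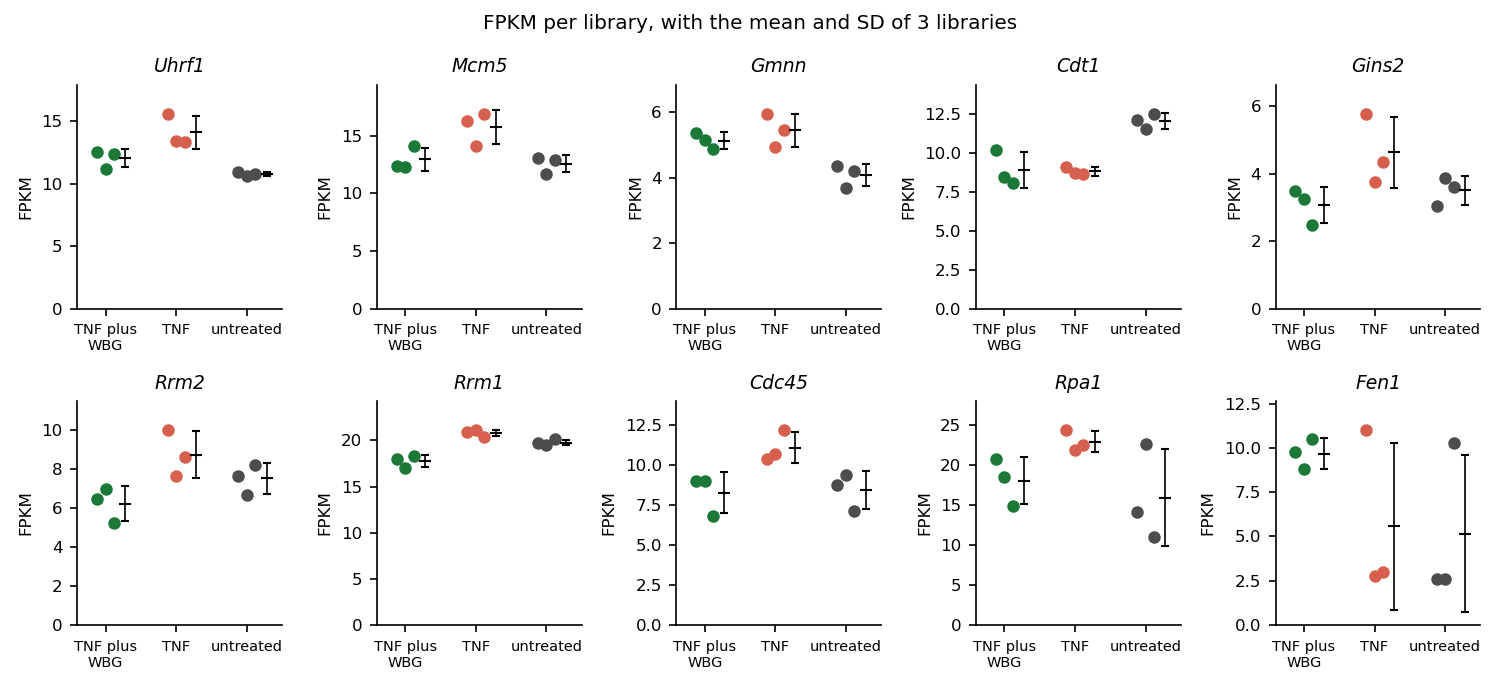
FPKM (vertical axes, from 0) of 10 replication genes in each library. Points are libraries of replicates 1 to 3 from left to right, and the bar beside them is the mean with SD (n = 3). Cdt1 is low and Gmnn high in both groups given TNF, Rrm1 is lowest with TNF plus WBG (17.0 to 18.3 FPKM), and Fen1 lies either near 3 or near 10 FPKM.

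The Mcm2 to Mcm7 helicase genes were among the best expressed of the set, from a mean of 13.8 FPKM for Mcm5 to 53.5 FPKM for Mcm7. Their summed level was 148, 140 and 152 FPKM with TNF plus WBG, 167, 155 and 165 with TNF, and 162, 154 and 155 untreated. The TNF plus WBG libraries were the 3 lowest, while TNF and untreated overlapped. All 6 genes had a fold change below 0 between TNF plus WBG and TNF (median -0.17), and 0 of 6 passed. For 4 of them (66.7%, background 7.72%) every TNF plus WBG library lay below every TNF library.

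Mcm5 had 12.4, 12.3 and 14.1 FPKM with TNF plus WBG, 16.3, 14.1 and 16.9 with TNF, and 13.1, 11.7 and 12.9 untreated. The TNF libraries were the 3 highest, by a narrow margin at 14.1 FPKM. Mcm5 rose with TNF 1.26-fold over untreated (log2 0.31 ± 0.08, adjusted p = 0.0468) and against TNF had a log2 fold change of -0.27 ± 0.08 with WBG (adjusted p = 0.449). The rise is at the edge of the threshold. It held without TNF plus WBG replicate 3 or TNF replicate 2 and was lost when any of the other 7 libraries was dropped (adjusted p between 0.061 and 0.149).

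Mcm7 had 52.8, 49.2 and 49.8 FPKM with TNF plus WBG, 56.0, 53.7 and 52.8 with TNF, and 57.3, 56.3 and 53.4 untreated. Mcm6 had 25.5, 25.1 and 26.7 FPKM with TNF plus WBG, 28.9, 27.1 and 29.1 with TNF, and 28.3, 27.6 and 28.1 untreated. Both were lower with TNF plus WBG than in every untreated library, as was Mcm2 (log2 -0.09 ± 0.05, adjusted p = 0.353). These are 3 of the 6 genes (50%, background 13.6%). Neither Mcm6 nor Mcm7 differed beyond the spread between TNF and untreated. The log2 fold change against untreated was -0.14 ± 0.04 for Mcm7 (adjusted p = 0.102) and -0.12 ± 0.04 for Mcm6 (adjusted p = 0.146). Against TNF, Mcm2 (-0.21 ± 0.05, adjusted p = 0.407) and Mcm4 (-0.22 ± 0.06, 0.423) were also below in every library. Exons of Mcm7 overlap Ap4m1 and Cops6 on the other strand and host the microRNA genes Mir25 and Mir93.

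Genes that switch the helicase on varied more. All 6 had fold changes below 0 between TNF plus WBG and TNF (median -0.23) and above 0 between TNF and untreated (median 0.19), and 0 of 6 passed in any comparison. Gins2, a GINS subunit, had 3.49, 3.24 and 2.48 FPKM with TNF plus WBG, 5.78, 3.75 and 4.36 with TNF, and 3.04, 3.87 and 3.62 untreated. Cdc45, the partner of GINS on the ring, had 9.0, 9.04 and 6.8 FPKM with TNF plus WBG, 10.4, 10.7 and 12.2 with TNF, and 8.77, 9.41 and 7.12 untreated. Every TNF library exceeded every TNF plus WBG library for both genes, and for Cdc45 also every untreated one. Against TNF the log2 fold change was -0.46 ± 0.15 for Gins2, the lowest of the 46 (adjusted p = 0.469), and -0.39 ± 0.12 for Cdc45 (adjusted p = 0.469). Gins4, the best expressed of the 6, had 17.5, 16.2 and 17.5 FPKM with TNF plus WBG, 18.3, 18.6 and 17.6 with TNF, and 17.0, 15.3 and 15.8 untreated. Gins4 differed by a log2 of 0.17 ± 0.05 between TNF and untreated (adjusted p = 0.0863). The remaining 3, Gins1, Gins3 and Mcm10, averaged 2.33, 2.61 and 2.43 FPKM. Exons of Gins2 and Cdc45 overlap another gene on the other strand. For Gins2 the overlap, with Gse1, takes 2758 of 4097 exon bases, and for Cdc45, with Ufd1, 209 of 3506.

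At the clamp, Pcna had 37.8, 40.9 and 41.2 FPKM with TNF plus WBG, 41.1, 43.3 and 42.8 with TNF, and 40.8, 37.9 and 38.2 untreated. TNF lay above untreated in every library by a log2 of 0.12 ± 0.05 (adjusted p = 0.173). Rfc1, the large subunit of the clamp loader, had 14.2, 13.9 and 13.7 FPKM with TNF plus WBG, 15.6, 15.4 and 16.1 with TNF, and 13.3, 15.8 and 15.4 untreated. All TNF plus WBG libraries lay below all TNF libraries (log2 -0.16 ± 0.06, adjusted p = 0.516). Rfc3, a small subunit, had 7.42, 6.77 and 6.82 FPKM with TNF plus WBG, 7.7, 9.73 and 8.22 with TNF, and 7.21, 6.11 and 6.49 untreated. Its TNF libraries stood above both other groups, with a log2 of 0.33 ± 0.09 over untreated just short of the threshold (adjusted p = 0.0529, and 0.0447 without TNF replicate 1). All 6 clamp and loader genes were below 0 against TNF with WBG and above 0 with TNF against untreated, and 0 of 6 passed.

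RPA coats single-stranded DNA. Rpa1, its large subunit, had 20.8, 18.6 and 14.9 FPKM with TNF plus WBG, 24.4, 21.9 and 22.6 with TNF, and 14.2, 22.7 and 11.0 untreated. Every TNF plus WBG library lay below every TNF library, while the untreated libraries alone spanned 11.0 to 22.7 FPKM and overlapped both other groups. Rpa1 had the largest fold change between TNF and untreated without passing (log2 0.56 ± 0.22, adjusted p = 0.164). Without untreated replicate 2 it was 0.83 with an adjusted p of 0.0121. Rpa3, the small subunit, had 16.4, 16.2 and 18.0 FPKM with TNF plus WBG, 18.7, 18.4 and 16.5 with TNF, and 17.1, 15.9 and 17.4 untreated. Those ranges overlapped in each comparison.

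Fen1, the flap nuclease that trims Okazaki fragments, took 2 levels that did not follow the groups. It had 9.75, 8.79 and 10.5 FPKM with TNF plus WBG, 11.0, 2.75 and 2.97 with TNF, and 2.58, 2.6 and 10.3 untreated. No library lay between 2.97 and 8.79 FPKM, and its spread within groups was the largest of the 46 (SD 0.779 in log2 units, against a median of 0.094 over the set). The log2 fold change was 0.92 ± 0.53 for TNF plus WBG against TNF (adjusted p = 0.662) and 1.02 ± 0.53 against untreated (adjusted p = 0.301), the highest of the set in both and short of the threshold. Fen1 has 2422 annotated exon bases, and its overlaps with Tmem258 and Gm10143 on the other strand sum to 2039. Bases under both partners would count more than once in that sum. Tmem258 had 48.3, 51.2 and 46.8 FPKM with TNF plus WBG, 48.5, 54.2 and 55.1 with TNF, and 46.4, 49.2 and 48.2 untreated, without 2 levels. Whether the assignment of reads in this overlap moves Fen1 was not tested.

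Lig1, the ligase that seals Okazaki fragments, had 6.94, 6.7 and 7.61 FPKM with TNF plus WBG, 9.63, 8.32 and 8.1 with TNF, and 8.7, 6.45 and 7.16 untreated. TNF plus WBG lay below TNF in every library (log2 -0.26 ± 0.10, adjusted p = 0.526) and overlapped untreated. Of 4268 exon bases of Lig1, 247 overlap Zswim9 on the other strand.

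The 8 polymerase and primase genes split evenly by sign between TNF plus WBG and TNF, with 4 above and 4 below 0, and 0 passed. Their log2 fold changes ran from -0.16 to 0.06 (median -0.05). For 2 of the 8 (25%, background 7.72%) every TNF plus WBG library lay below every TNF library, and for 0 the reverse held (background 7.03%). Pold2, a subunit of polymerase delta, had 27.0, 26.7 and 30.2 FPKM with TNF plus WBG, 26.5, 28.6 and 28.7 with TNF, and 28.2, 30.9 and 30.2 untreated. Pola2, of the polymerase alpha and primase complex, had 14.6, 14.3 and 13.5 FPKM with TNF plus WBG, 14.6, 12.7 and 14.6 with TNF, and 12.8, 13.1 and 11.5 untreated. Pold2 overlapped throughout, while Pola2 was higher with TNF plus WBG than in every untreated library (log2 0.17 ± 0.07, adjusted p = 0.199). Prim2, a primase subunit, stood 0.17 ± 0.06 above untreated in both treated groups (adjusted p = 0.12 with TNF plus WBG and 0.121 with TNF). Between TNF and untreated, 7 of the 8 were above 0.

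Ribonucleotide reductase, which makes deoxynucleotides, held the replication gene with the smallest p of the 46 between TNF plus WBG and TNF. Rrm1, the large subunit, had 18.0, 17.0 and 18.3 FPKM with TNF plus WBG, 20.9, 21.1 and 20.4 with TNF, and 19.7, 19.5 and 20.1 untreated. The 3 groups did not overlap at all, with TNF plus WBG lowest and TNF highest. Against TNF, Rrm1 with WBG was at 0.856 of the mean (log2 -0.21 ± 0.04), with limma p-values of 0.000775 unadjusted and 0.263 adjusted over all genes, and against untreated at 0.899 (-0.15 ± 0.04, adjusted p = 0.0692). It had the smallest within-group spread of the 46 (SD 0.035 in log2 units).

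Rrm2, the regulated small subunit, had 6.48, 6.97 and 5.26 FPKM with TNF plus WBG, 10.0, 7.64 and 8.61 with TNF, and 7.64, 6.69 and 8.24 untreated. All TNF plus WBG libraries were below all TNF libraries (log2 -0.43 ± 0.12, adjusted p = 0.417), and they overlapped untreated (-0.24 ± 0.12, adjusted p = 0.287). Tyms, thymidylate synthase, averaged 5.36 FPKM with a TNF range of 4.64 to 7.99 FPKM and no separation of groups.

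Of the genes that act on chromatin behind the fork, Uhrf1 changed and the others leaned the same way. Uhrf1, which brings the maintenance DNA methyltransferase to newly copied DNA, had 12.5, 11.2 and 12.4 FPKM with TNF plus WBG, 15.6, 13.4 and 13.3 with TNF, and 10.9, 10.6 and 10.8 untreated. The 3 groups were fully apart, TNF highest and untreated lowest. Uhrf1 rose with TNF 1.31-fold (log2 0.36 ± 0.07, adjusted p = 0.0127), a call kept under every alternative tried, with omissions of a library giving adjusted p = 0.0132 to 0.0433. With WBG it was at 0.854 of the TNF mean (-0.21 ± 0.07, adjusted p = 0.483) and at 1.12 times the untreated mean (0.15 ± 0.07, adjusted p = 0.254). Chaf1a, the large subunit of the histone chaperone CAF-1, had 5.78, 5.94 and 6.39 FPKM with TNF plus WBG, 7.42, 6.26 and 6.89 with TNF, and 5.99, 5.79 and 5.95 untreated. TNF exceeded untreated in every library (0.18 ± 0.07, adjusted p = 0.144), as it did for Chaf1b. Of 8854 exon bases of Chaf1a, 4648 overlap Ubxn6 on the other strand.

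The drivers of G1/S entry on the list did not move beyond the spread. E2f1, the activating factor, had 9.08, 8.28 and 9.51 FPKM with TNF plus WBG, 9.74, 8.83 and 9.89 with TNF, and 8.54, 9.11 and 9.07 untreated. Ccne1, cyclin E1, had 8.33, 7.64 and 8.82 FPKM with TNF plus WBG, 9.42, 8.08 and 9.54 with TNF, and 8.69, 8.9 and 8.13 untreated. Both overlapped in all comparisons, as did Ccne2, with a mean of 4.14 FPKM.

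**Figure D4:**
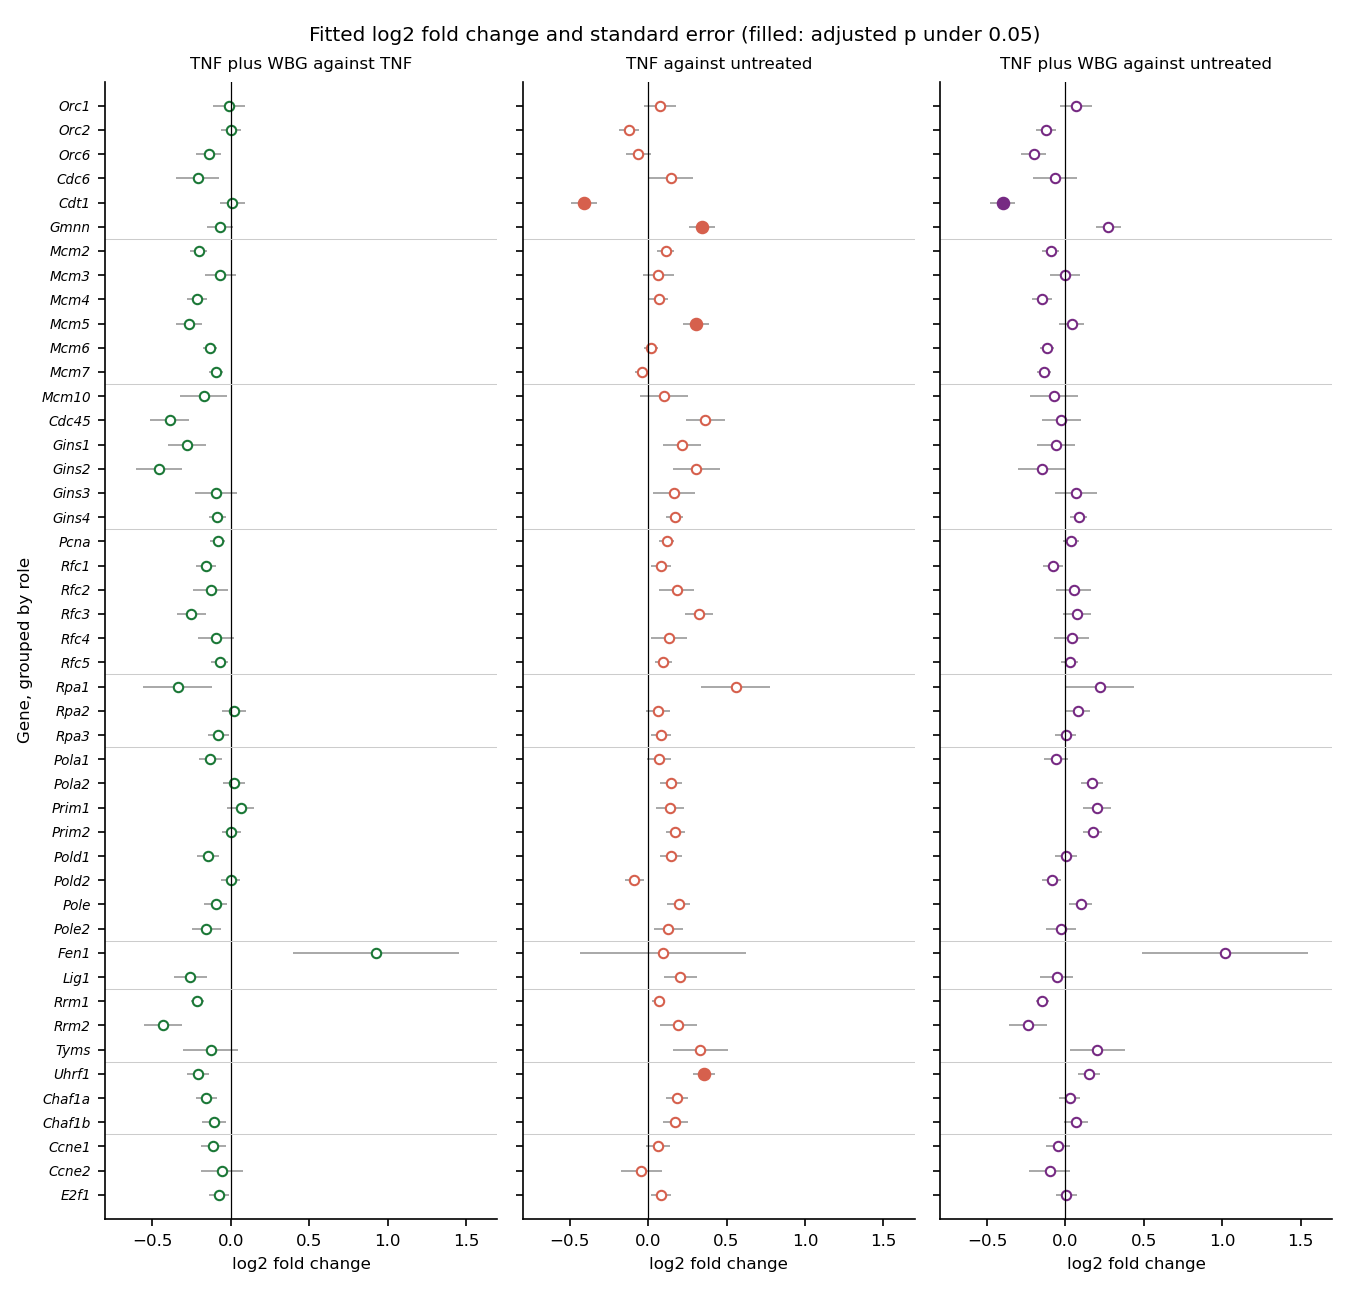
Fitted log2 fold change (horizontal axes) of each replication gene, grouped by role from licensing at the top to G1/S control at the bottom, for the 3 comparisons. Bars are standard errors of the limma fit and filled points passed at an adjusted p under 0.05: none between TNF plus WBG and TNF, Cdt1, Gmnn, Mcm5 and Uhrf1 between TNF and untreated, and Cdt1 between TNF plus WBG and untreated.

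Lists of genes around the pathway differed in direction and held few calls. Of 41 other replication factors 0 rose and 0 fell in each comparison. Of all genes 0.0998% were called for TNF plus WBG against TNF, 10.6% for TNF against untreated and 9.19% for TNF plus WBG against untreated. In that order 7, 8 and 5 of the list had an unadjusted p under 0.05. These are 17.1, 19.5 and 12.2% of the list, where 9.06, 24 and 22.8% of all genes did. Their fold changes were below 0 for 32 between TNF plus WBG and TNF (78%, background 51.1%, median -0.07). Between TNF and untreated 26 were above 0 (63.4%, background 50%, median 0.05). Between TNF plus WBG and untreated 25 were below 0 (61%, background 50.8%, median -0.03). The member farthest from 0 with WBG was Dscc1, of an alternative clamp loader (log2 -0.44, adjusted p = 0.423 against TNF, and -0.38, 0.108 against untreated). With TNF it was Rnaseh2c, of the nuclease that removes RNA primers (0.41, adjusted p = 0.134).

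Among 27 tested regulators of RB, E2F and G1/S entry, 3 rose and 0 fell with TNF and likewise with TNF plus WBG against untreated, which is 11.1% of the list, where 6.43 and 5.52% of all genes rose. The count with TNF was 2 without TNF replicate 2 or 3 or without untreated replicate 1 or 3. In the same list 0 passed between TNF plus WBG and TNF (2 at an unadjusted p under 0.05, or 7.41%, against 9.06% of all genes). The 3 that rose are Cdk6 and Ccnd1 (cyclin D1), which release E2F, and Cdkn1a, the inhibitor p21. Cdk6 had 9.27, 9.79 and 8.99 FPKM with TNF plus WBG, 11.4, 11.7 and 12 with TNF, and 5.82, 5.34 and 6.23 untreated. The groups were fully apart, with TNF 2.02-fold over untreated (log2 0.90 ± 0.06, adjusted p = 3.04e-05), TNF plus WBG 1.61-fold over untreated (0.61 ± 0.06, adjusted p = 0.000392), and a log2 of -0.30 ± 0.06 between TNF plus WBG and TNF (adjusted p = 0.307). Ccnd1 averaged 112 ± 3.43 FPKM with TNF plus WBG, 121 ± 1.5 with TNF and 84.9 ± 2.31 untreated (SD, n = 3), and rose with TNF by a log2 of 0.51 ± 0.04 (adjusted p = 3.01e-05). Cdkn1a averaged 19.8 ± 2.33 FPKM with TNF plus WBG, 17.2 ± 0.527 with TNF and 12.9 ± 0.931 untreated (SD, n = 3). Unlike the other 2 it was not lower with WBG than with TNF (log2 0.19 ± 0.08, adjusted p = 0.554), and both treated groups exceeded untreated (adjusted p = 0.00253 with TNF plus WBG and 0.0174 with TNF). Cdkn1c and Cdkn2b were too low to be tested.

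Of 13 replication checkpoint genes Chek2, a checkpoint kinase, rose with TNF (log2 0.34 ± 0.09, adjusted p = 0.0413). That is 7.69% of the list, close to the 6.43% of all genes that rose. The count became 0 in each omission of a library other than untreated replicate 1. In the other comparisons 0 passed (0 and 2 at an unadjusted p under 0.05, or 0 and 15.4%, where 9.06 and 22.8% of all genes did). Fold changes of this list did not follow the replication genes with TNF, with 5 above and 8 below 0 (38.5 and 61.5%, background 50% each, median 0). Cdc25c was farthest from 0 between TNF plus WBG and TNF (-0.19, adjusted p = 0.649) and Atrip between TNF plus WBG and untreated (-0.33, adjusted p = 0.142). Of 24 G2/M genes Top2a, a topoisomerase of mitotic chromosomes, rose with TNF (0.27 ± 0.06, adjusted p = 0.0289). That is 4.17% of the list, below the 6.43% of all genes. The count was 0 without TNF replicate 1 or 3 or any untreated replicate. The G2/M list was above 0 for 22 genes with TNF against untreated (91.7%, background 50%, median 0.19). With TNF plus WBG against untreated 21 of the list were above 0 (87.5%, background 49.2%, median 0.16). The 46 replication genes had medians of 0.13 and 0 in these comparisons. For 11 of the 24 G2/M genes (45.8%) every TNF library lay above every untreated library, against 30.4% of the replication genes and 15.5% of all genes. Between TNF plus WBG and TNF, 0 of 24 G2/M genes had groups apart, where 14.7% of all genes did. There 17 of the 46 replication genes (37%) had groups apart. The G2/M median was -0.04. The difference between the 2 lists was not tested. Foxm1, a G2/M transcription factor, was farthest from 0 between TNF plus WBG and TNF (-0.39, adjusted p = 0.601). Kif23 was so between TNF plus WBG and untreated (0.34, adjusted p = 0.0827). In the latter comparison 0 of the list passed and 6 had an unadjusted p under 0.05 (25%, against 22.8% of all genes).

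Within groups, replicate 2 was the lowest library for 25 of the 46 genes with TNF plus WBG, for 24 with TNF and for 22 untreated. Members moved together between libraries of a group as well as between groups: the mean deviation from the group was -0.038, -0.049 and -0.03 in those 3 libraries, where the group means of TNF plus WBG and TNF lie at 3.288 and 3.404 on the same scale. Over all genes the mean of log2(FPKM + 1) was 3.551 to 3.581 in the 9 libraries. The untreated libraries, at 3.551, 3.566 and 3.566, all lay below every treated library, at 3.572 to 3.581. With quantile normalization the members' median between TNF and untreated was 0.117, against 0.131 without it.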

How the data were processed

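Poly-A paired-end libraries were sequenced on an Illumina NovaSeq instrument, per the labels' protocols. The authors deposited FPKM per Ensembl gene and library. The choice of aligner, quantifier, annotation, genome build and strand setting was not given in the sources used here. Symbols came from GENCODE M21, which named 55144 identifiers and left 1145 unnamed. Chtf8 matches 2 identifiers, of which the lower-numbered was used.

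The pipeline kept genes with at least 1 FPKM in at least 3 of the 9 libraries (13026), took log2(FPKM + 1), and fitted group as the only term over all 9 libraries with limma 3.58.1 in R 4.3.3, letting the prior variance follow mean expression. Fold changes hold the pseudocount of 1 and understate changes of low genes. Errors are SD (n = 3) beside FPKM and SE beside log2 fold changes. Depth is known only as the estimate given, and no counting interval can be had. The fit was tested on simulated data.

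Members, lists and tests were chosen with earlier results of these data known. Named by rule were the members called in any comparison, the 2 with the highest mean FPKM in each role, and the 3 with the largest absolute fold change in each comparison. From other lists the rule took called members, or the one farthest from 0. Mcm2, Mcm4, Rfc3, Prim2 and Tyms, and the levels of Orc1, Cdc6, Gins1, Gins3, Mcm10 and Ccne2, were added after their values were seen. The fold change of Fen1 against untreated and the largest change of a list with calls in another comparison follow the rule. Promoters are RefSeq windows on GRCm38.p6. No set test was run, and no library was left out. Alternatives were pseudocounts of 0.1 and 5, no filter, a mean of at least 5 FPKM, median-ratio scaling, quantile normalization, only the 6 libraries compared, no trend, robust limma, a replicate block, and omission of each library. Tables and plots used pandas 2.3.3, matplotlib 3.10.9, numpy 2.4.6 and Python 3.11.15.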

Additional observations from a re-analysis of the deposited data

How the results depend on the processing

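The lean of the replication genes kept its direction under all 19 alternatives: between TNF plus WBG and TNF 5 to 8 genes were above 0 and 28 to 41 below, and between TNF and untreated 30 to 40 above and 5 to 8 below (the 28 and the 30 where only 35 genes were kept, at a mean of 5 FPKM). The median over all genes stayed between -0.015 and 0.003. The members' median moved by more than the library spread only at a pseudocount of 5 (-0.08 for TNF plus WBG against TNF and 0.08 for TNF against untreated), and ranged from -0.15 to -0.08 and from 0.11 to 0.15 over omissions of 1 library. Between TNF plus WBG and untreated it ranged from -0.02 to 0.03. Genes that rose with TNF numbered 1 with no filter and 1 in a fit of only the 6 libraries compared, and 1 to 3 over omissions. With no filter and with the 6 libraries compared, the rises of Gmnn and Mcm5 were lost. In both directions together, 3 replication genes were called with TNF under quantile normalization and 3 with no trend, against 4 in the main fit. The fall of Cdt1 was counted 0 to 1 times over omissions, with TNF and with TNF plus WBG. Of the other lists, the rise of a checkpoint gene with TNF was 0 with no filter, at a mean of 5 FPKM, with quantile normalization, with the 6 libraries compared and with the replicate block, and 0 to 1 over omissions. The G2/M count was 0 with no filter, 2 at a mean of 5 FPKM, 0 with the replicate block and 0 to 1 over omissions, also for TNF plus WBG against untreated. A member of the list of other replication factors rose with TNF in 1 omission (0 to 1). The cause of these changes was not tested.

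Over all genes, same-numbered replicates deviated together with a correlation of -0.072 to 0.107 over the 9 pairs of libraries and the libraries matched best with their own number in 2 of 18 cases, so over all genes the numbers were not taken to pair the samples. The replication genes on their own averaged below the group mean in replicate 2 and above it in replicate 1 in all 3 groups, which that correlation does not address. With the replicate block 3 replication genes rose and 1 fell with TNF, and 0 passed between TNF plus WBG and TNF, as without it. The precision is limited by 3 libraries a group and by low levels: 11 of the 46 genes averaged under 5 FPKM.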
